A study of Mus musculus with 8 samples.

Results

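The MYC and MAX network is a set of transcription factors that bind DNA as pairs. The genes examined here were chosen by symbol, and comprised 3 activators (Myc, Mycn and Mycl), 5 antagonists (Mxd1, Mxd3, Mxd4, Mxi1 and Mnt) and the shared partners Max and Mlx, 10 genes in all. Of these, 9 had a row among the 22065 named genes of the count table and all 9 were among the 16444 genes tested. Mycl had no row and was not analysed here, and the smallest row total in the table was 11 reads over all libraries.

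MYC proteins act as transcriptional activators when paired with MAX and drive growth, ribosome production and entry into the cell cycle. MXD proteins and MNT compete for MAX and recruit the SIN3 corepressor to the same E-box sites, and they are usually associated with quiescence and differentiation. MLX pairs with several MXD proteins and with the glucose-responsive factors MLXIP and MLXIPL. In hematopoietic stem cells (HSCs), c-MYC and N-MYC are known to act together in survival and in the balance between self-renewal and differentiation.

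The libraries came from bone marrow HSCs of C57BL/6 mice aged 8 to 10 weeks, with 100 cells per library. The cells were sorted as lineage-negative, CD150+, CD48- and EPCR+. The study's definition of long-term HSCs also includes CD117 (c-Kit). The Mitol KO group (n = 4) carried Mitol Flox/Flox with MX1-cre, and the control group (n = 4) were Mitol Flox/Flox littermates without the Cre. By the study's methods all mice received Poly:IC, an interferon inducer that switches on MX1-cre, and the RNA was taken a week later. MX1-cre is not restricted to HSCs, and both groups share the floxed alleles and the Poly:IC exposure. The labels do not say that each library came from its own mouse, so p-values measure the spread between these libraries. The comparison asks how the loss of MITOL, a mitochondrial outer membrane ubiquitin ligase, altered HSC gene expression.

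Library totals on named genes ran from 7214935 to 12398138 reads. The targeted gene, Marchf5, had 232 to 309 normalized counts in Mitol KO and 262 to 334 in control libraries (log2 fold change -0.15, SE 0.13, adjusted p = 0.498), and counts per gene do not separate deleted from remaining exons. All 12 HSC markers, Procr, Slamf1, Kit, Mecom and Hlf among them, were expressed in every library. Hlf, Kit and Hoxa9 were among those that fell in Mitol KO libraries, and the list summed to 31150 to 35560 normalized counts in Mitol KO and 43890 to 51060 in control libraries. Among genes of other cells, 4 of 8 B-lineage, 4 of 7 T-cell and 2 of 10 neutrophil genes had no row, while Prtn3 had 354 to 951 reads in every library, Lck 115 to 220 and Cd79b 115 to 188. Normalized sums in Mitol KO and control libraries were 485 to 1023 and 405 to 616 for the neutrophil list, 136 to 150 and 146 to 204 for the B-lineage list, 189 to 259 and 172 to 200.5 for the T-cell list, and 2456 to 5202 and 3269 to 4933 for the megakaryocyte list. Of these lists 1 gene passed the threshold, the platelet factor Pf4, at 11 to 69 reads per library. It fell (log2 fold change -1.69, adjusted p = 0.0202) and was 1 of 5 tested megakaryocyte genes (20%, against 8.43% of all genes). Without Mitol KO replicate 2, Mitol KO replicate 3 or control replicate 4, 0 megakaryocyte genes passed. For Prtn3 the log2 fold change was 0.76 (adjusted p = 0.0674 by edgeR and 0.0155 by DESeq2). Markers of red cells stood apart in Mitol KO replicate 3, where Slc4a1 had 1515 reads, against at most 10 in any other library. The 8 red-cell genes summed to 1055 to 4918 normalized counts in Mitol KO and 444.5 to 907 in control libraries. Of the 4 tested, Hbb-bt was the 1 that rose past the threshold (25%, against 8.43% of all genes). Without Mitol KO replicate 3, 0 red-cell genes passed, as without Mitol KO replicates 1 or 2 or control replicates 2 or 3. Called HSC markers numbered 4 in the full fit, 3 without Mitol KO replicate 3, and 3 to 6 over all fits that left out a library. Where a list below had calls, the number without replicate 3 is given.

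Promoter sequences of 4 members are shown because MYC, MXD and MLX pairs bind E-boxes and because Mycn is known as an E2F target. RefSeq gave windows for 9 of the 10 genes. Myc had no window and was not searched. The 250 bases upstream of each start were searched on both strands for the E-box CACGTG, which reads the same on either strand. An E-box lay in 3 of the 11 windows of these genes (those of Mxd4, Mnt and Mlx, with Mxi1 having 3 windows), against 6.02% of all 32851 upstream windows. Of the E2F motifs TTTCCCGC and TTTGGCGC, the latter was found in Mycn and neither in another searched member. Either motif lay in 1.30% of all windows. A match is a description of the letters and no evidence of binding. The sequences below are written 5′ to 3′ on the gene's strand, and capitals mark the matched motif. The windows are from RefSeq on GRCm38.p6, at chr5:34187711-34187960 (minus strand) for Mxd4, chr11:74830674-74830923 (plus strand) for Mnt, chr11:101087040-101087289 (plus strand) for Mlx and chr12:12941837-12942086 (minus strand) for Mycn.
Mxd4: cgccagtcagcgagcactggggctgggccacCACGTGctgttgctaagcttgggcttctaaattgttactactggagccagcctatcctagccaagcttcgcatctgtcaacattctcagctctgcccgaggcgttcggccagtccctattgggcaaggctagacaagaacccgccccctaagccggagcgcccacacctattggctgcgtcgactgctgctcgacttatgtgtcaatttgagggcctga
Mnt: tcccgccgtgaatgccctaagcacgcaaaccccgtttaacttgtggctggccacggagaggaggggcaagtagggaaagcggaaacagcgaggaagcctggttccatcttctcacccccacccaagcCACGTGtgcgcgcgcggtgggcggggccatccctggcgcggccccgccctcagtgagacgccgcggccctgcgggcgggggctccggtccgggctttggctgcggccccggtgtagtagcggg
Mlx: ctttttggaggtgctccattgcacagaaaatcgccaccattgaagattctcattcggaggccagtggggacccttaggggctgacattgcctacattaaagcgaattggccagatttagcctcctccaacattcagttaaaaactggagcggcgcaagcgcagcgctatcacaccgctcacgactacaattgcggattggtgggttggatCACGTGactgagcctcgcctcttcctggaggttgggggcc
Mycn: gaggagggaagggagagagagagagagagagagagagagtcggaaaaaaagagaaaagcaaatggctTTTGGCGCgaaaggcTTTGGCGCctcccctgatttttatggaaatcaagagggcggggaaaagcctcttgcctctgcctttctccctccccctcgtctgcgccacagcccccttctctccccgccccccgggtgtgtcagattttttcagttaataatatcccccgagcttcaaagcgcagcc
The E-box began 219 bases upstream of the start in Mxd4, 123 in Mnt and 40 in Mlx. In Mycn, TTTGGCGC occurred at 183 and again at 168 bases upstream.

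Expression levels were compared between genes as CPM (reads scaled to library size) per kilobase of merged exon. In control HSCs, Myc was the most abundant member at 76.7 ± 16.6 CPM per kb (SD, n = 4), followed by Mycn at 54.8 ± 9.50. Their ranges overlapped, although Myc lay above Mycn in 4 of 4 control libraries. Mnt, the antagonist with the highest level, had 15.1 ± 2.47 CPM per kb, and no control library of Mnt reached the lowest value of Mycn. Mxd4, Max and Mxd1 followed at 13.5 ± 1.03, 13.2 ± 1.83 and 12.9 ± 0.988 CPM per kb, and did not separate from Mnt or from each other. Mlx at 8.51 ± 1.12 overlapped Mxi1 at 7.48 ± 0.893, and Mxd3 was lowest at 3.08 ± 1.21 CPM per kb.

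In Mitol KO HSCs the order differed at the top, with Mycn at 68.1 ± 4.21 and Myc at 65.9 ± 9.23 CPM per kb. Mycn lay above Myc in only 2 of 4 Mitol KO libraries, so these levels did not differ beyond their spread. The activators remained apart from every other member, the next being Mnt at 12.98 ± 1.88 CPM per kb. At the lower end, Mxd3 reached 5.80 ± 1.89 CPM per kb and overlapped Mxi1 at 6.21 ± 0.168.

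**Figure D1:**
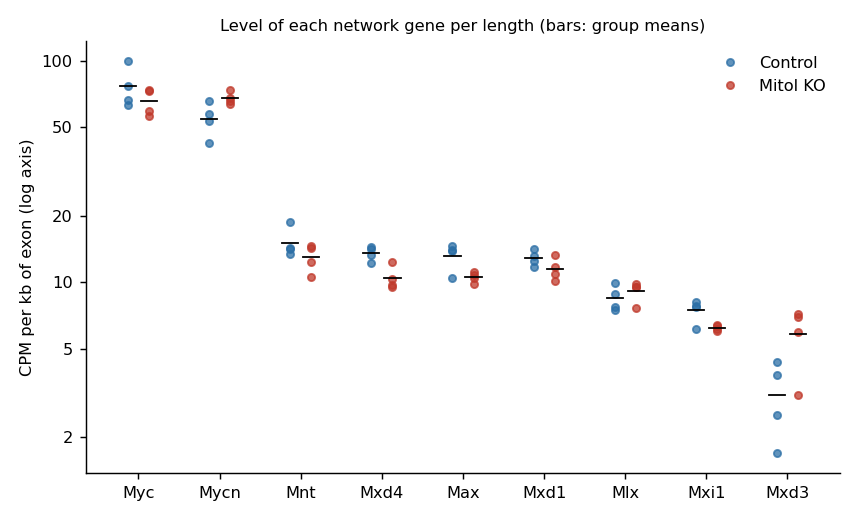
Levels of the 9 network genes in CPM per kilobase of exon on a log axis, with points for single libraries (4 control, 4 Mitol KO) and bars for group means. Myc and Mycn lie at 42.8 CPM per kb or more in every library, while the other 7 genes reach at most 18.8.

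Between Mitol KO and control HSCs, the quasi-likelihood test of edgeR called 1386 of the 16444 tested genes (8.43%) at an adjusted p under 0.05. Of all tested genes 4.68% rose and 3.75% fell. Fold changes throughout are those fitted by edgeR on TMM-scaled counts, and can differ slightly from the ratio of mean normalized counts, which use DESeq2 size factors. In the network, 1 of 9 genes passed this threshold, the antagonist Mxd4, which fell (11.1% of members, and 3.75% of all genes fell). This share is close to that of all genes called. The groups did not overlap for 0 of the 9 members, against 15.4% of all tested genes. At an unadjusted p under 0.05 there were 5 members (Mxd4, Mxd3, Max, Mycn and Mxi1), against 26.4% of all genes, and DESeq2 called 2, Mxd4 and Mxd3, against 14.1% of all genes. The number of all called genes was 565, 492, 520 and 2501 without Mitol KO replicates 1 to 4, and 1319, 359, 811 and 510 without control replicates 1 to 4. The median log2 fold change was -0.22 over the members and -0.0195 over all tested genes. In bulk samples, fewer expressing cells and less RNA per cell cannot be told apart.

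**Figure D2:**
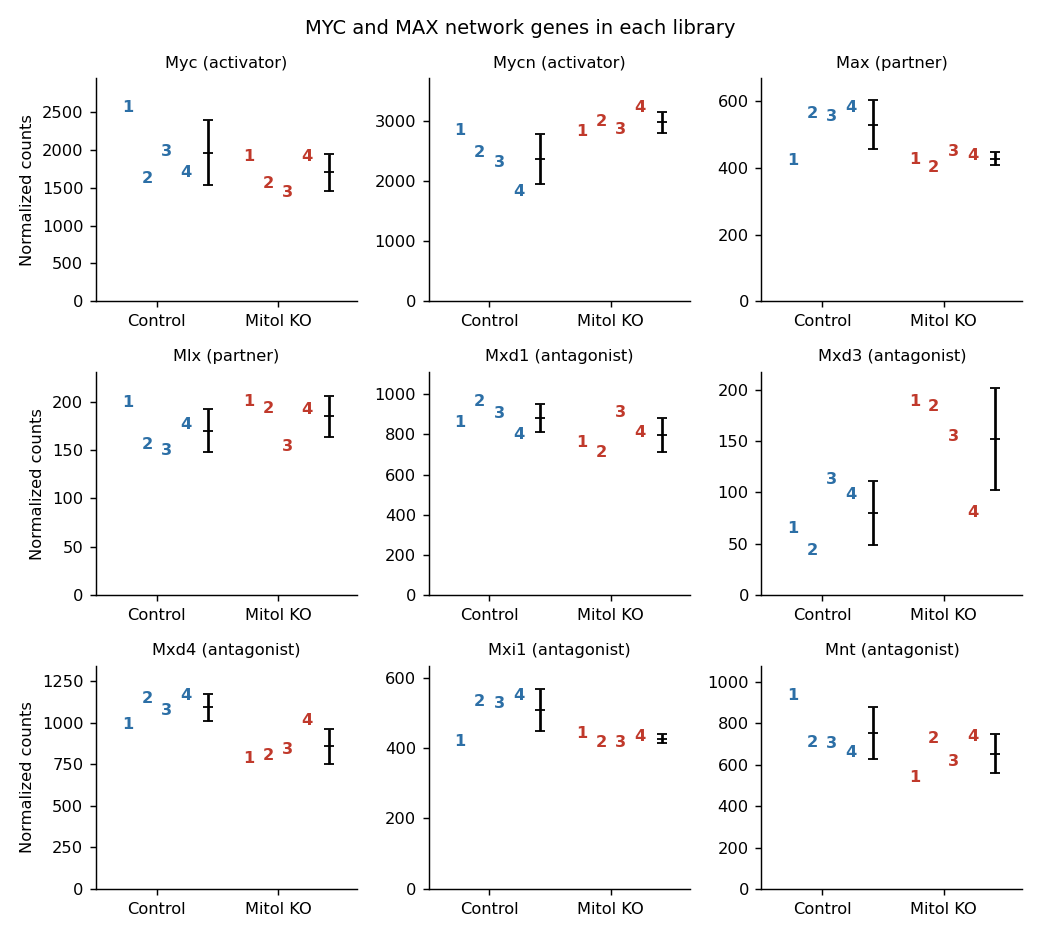
Normalized counts of the 9 network genes in each library, where digits are replicate numbers, blue is control and red is Mitol KO, and the black bar is the group mean ± SD (n = 4). Control replicate 1 is highest for Myc and Mnt and lowest for Max and Mxi1 among the control libraries.

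Myc (GRCm39, chr15:61857227-61862223 on the plus strand) encodes c-MYC. Its normalized counts, meaning reads scaled for library size, were 1911, 1553, 1441 and 1915 in Mitol KO replicates 1 to 4 and 2557, 1616, 1971 and 1693 in control replicates 1 to 4. The groups overlapped, and control replicate 1 was the highest library. The log2 fold change was -0.22 (SE 0.15, adjusted p = 0.367), and without control replicate 1 it was -0.051 (also short of the threshold). A lower Myc level in Mitol KO HSCs was therefore not detectable beyond the spread between libraries.

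Mycn (GRCm39, chr12:12986076-12992915 on the minus strand) encodes N-MYC, the paralog that can replace c-MYC in many settings. It had 2821, 2996, 2860 and 3224 normalized counts in Mitol KO and 2838, 2482, 2303 and 1834 in control libraries. In 3 of 4 Mitol KO libraries Mycn lay above every control library, and Mitol KO replicate 1 fell just under control replicate 1. The means were 2975 ± 182 and 2364 ± 418. The fitted log2 fold change of 0.31 (SE 0.12, adjusted p = 0.112) did not pass the threshold. Without control replicate 1 it was 0.43 (adjusted p = 0.0415), and with the 7 other fits that left out a library it did not pass. Mycn made up 46.6%, 53.3%, 54.0% and 49.9% of the summed activator level per length in Mitol KO and 39.6%, 47.6%, 40.9% and 39.1% in control libraries. This share was above every control library in 3 of 4 Mitol KO libraries, and it is given as a description without a test.

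Max (GRCm39, chr12:76984043-77009009 on the minus strand) encodes the obligate partner of MYC proteins. Libraries held 427, 402, 449 and 437 normalized counts in Mitol KO and 423, 563, 555 and 582 in control libraries. In control replicates 2 to 4 Max lay above every Mitol KO library, whereas control replicate 1 was within the Mitol KO range. The log2 fold change of -0.33 (SE 0.12, adjusted p = 0.106) did not pass the threshold, and it passed without control replicate 1 at -0.41 (adjusted p = 0.0380). Per length, Max amounted to 0.0725 to 0.0908 of the summed Myc and Mycn level in Mitol KO and 0.0633 to 0.133 in control libraries.

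Mlx (GRCm39, chr11:100978080-100983043 on the plus strand) encodes the partner of MLXIP and of several MXD proteins. It had 200, 193, 154 and 192 normalized counts in Mitol KO and 199, 155, 150 and 176 in control libraries. The groups lay over each other, with a log2 fold change of 0.10 (SE 0.15, adjusted p = 0.718). Of its 2137 exon bases, 1109 are shared with Psmc3ip on the opposite strand, and the strand setting of the counting is not given in the sources used here, so this gene's count is uncertain.

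Mxd4 (GRCm39, chr5:34331227-34345240 on the minus strand) encodes an MXD protein linked to differentiation, and its promoter window holds the E-box shown above. Its normalized counts were 785, 799, 837 and 1010 in Mitol KO and 987, 1147, 1073 and 1165 in control libraries. Mitol KO replicates 1 to 3 lay below every control library, and replicate 4 lay between control replicates 1 and 3. The means were 858 ± 104 in Mitol KO and 1093 ± 81.3 in control HSCs. In the edgeR fit Mxd4 fell by 22.5%, a log2 fold change of -0.37 (SE 0.11, adjusted p = 0.0496). The call stood at the threshold. It was kept without Mitol KO replicate 4 (log2 fold change -0.44, adjusted p = 0.0114) and without control replicate 1 (-0.40, adjusted p = 0.0470). It was lost without each of Mitol KO replicates 1, 2 and 3 and control replicates 2, 3 and 4 (adjusted p between 0.0927 and 0.132), the red-cell-marked replicate 3 included (-0.34, adjusted p = 0.120). Of its 8659 exon bases, 514 are shared with Mxd4os1 on the opposite strand. The HSC marker sum given above was also lower in every Mitol KO library, and its part in the Mxd4 difference was not tested.

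Mxi1 (GRCm39, chr19:53298852-53364241 on the plus strand) encodes a close relative of MXD1, also called MXD2. It had 441, 417, 416 and 433 normalized counts in Mitol KO and 419, 533, 527 and 551 in control libraries. The Mitol KO libraries were tight, with an SD of 12.6, and only control replicate 1 fell among them. The log2 fold change of -0.27 (SE 0.11, adjusted p = 0.146) did not pass the threshold in any of the 13 alternative fits, with adjusted p from 0.0649 to 0.305.

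Mnt (GRCm39, chr11:74721338-74736836 on the plus strand) encodes a widely expressed MAX-binding antagonist. Its normalized counts were 538, 727, 616 and 735 in Mitol KO and 936, 709, 702 and 661 in control libraries. The groups overlapped, with control replicate 1 well above the rest. The log2 fold change was -0.22 (SE 0.14, adjusted p = 0.333), and without control replicate 1 it was -0.0845 (adjusted p = 0.706). Mxd1 (GRCm39, chr6:86624024-86646218 on the minus strand) encodes an antagonist induced during myeloid differentiation. It had 760, 709, 912 and 809 normalized counts in Mitol KO and 857, 965, 904 and 799 in control libraries, again with overlap. Its log2 fold change was -0.16 (SE 0.11, adjusted p = 0.356).

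Mxd3 (GRCm39, chr13:55472981-55477908 on the minus strand) differs from the other antagonists in that it is known to be expressed in S phase. Its normalized counts were 189, 184, 155 and 80.4 in Mitol KO and 64.6, 43.6, 112 and 97.9 in control libraries. Mitol KO replicates 1 to 3 lay above every control library, and replicate 4 lay between control replicates 1 and 4. The means were 152 ± 49.98 and 79.6 ± 31.1. The fitted difference was 1.87-fold (log2 fold change 0.91, SE 0.32, adjusted p = 0.0947) and did not pass the threshold. It passed with DESeq2 (adjusted p = 0.0368) and without Mitol KO replicate 4 (log2 fold change 1.13, adjusted p = 0.0180).

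Several measures moved with Mxd3, and their part in its difference was not tested. The summed normalized counts of 10 proliferation markers, such as Mki67 and Top2a, were 12870, 12390, 9866 and 6089 in Mitol KO and 2924, 2952, 6192 and 4503 in control libraries. In each group the library order of this sum was close to that of Mxd3, with Mitol KO replicate 4 lowest of its group and control replicates 3 and 4 highest of theirs. All 10 markers rose (against 4.68% of all genes), with a median log2 fold change of 1.503, and this number was 5, 4, 8 and 10 without Mitol KO replicates 1 to 4 and 9, 2, 10 and 5 without control replicates 1 to 4. In addition, 876 of the 2760 exon bases of Mxd3 are shared with Prelid1 on the opposite strand, a gene looked up for this overlap. Prelid1 rose with 1202, 1203, 884 and 758 normalized counts in Mitol KO and 611, 540, 677 and 578 in control libraries (log2 fold change 0.73, SE 0.15, adjusted p = 0.0160), so the count of Mxd3 is uncertain where strand was not used.

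**Figure D3:**
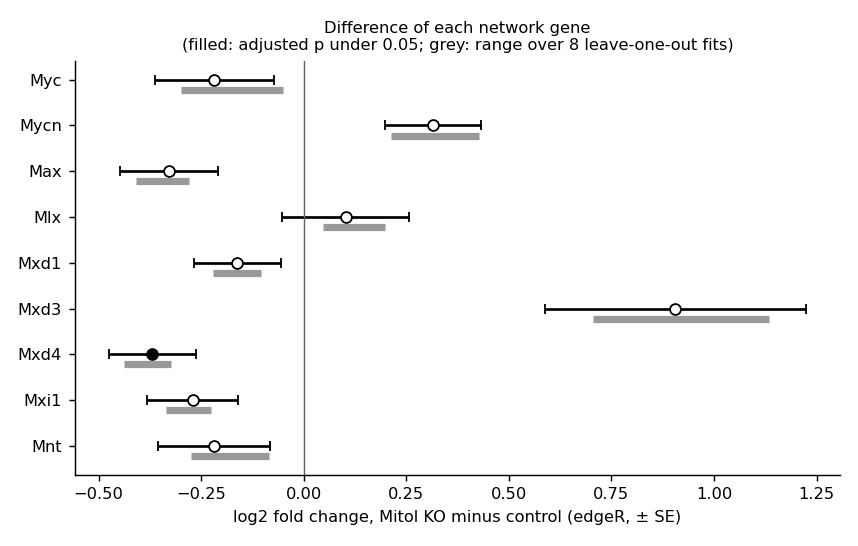
Log2 fold change of each network gene, Mitol KO minus control, with its standard error, and in grey the range over the 8 fits that each left out a library. The filled point is Mxd4 at -0.37, the only member past the threshold, and Mxd3 at 0.91 has the largest standard error, 0.32.

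Activators were then set against antagonists by summing CPM per kb within each library. The activators Myc and Mycn summed to 138, 128, 122 and 148 CPM per kb in Mitol KO and 166, 120, 130 and 109 in control libraries. These sums overlapped fully, Myc being lower and Mycn higher on average in Mitol KO HSCs. The antagonists summed to 44.5, 47.2, 48.0 and 48.0 CPM per kb in Mitol KO and 52.1, 51.9, 52.6 and 51.5 in control libraries. Every Mitol KO library had less antagonist mRNA per length than every control library, although in 4 of the 5 single genes the difference did not pass the threshold. The groups overlapped for each of the 5 genes singly, and 15.4% of all tested genes had groups without overlap. Mxd4, the called gene, gave 9.51, 9.67, 10.3 and 12.3 CPM per kb of these sums in Mitol KO and 12.15, 14.1, 13.2 and 14.5 in control libraries. Its part in the separation of the sums was not tested. Log2 fold changes were below 0 in 4 of the 5 antagonists, all but Mxd3, with a median of -0.22. Among all 16444 tested genes, 7841 had a log2 fold change above 0.

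The log2 ratio of activators to antagonists was 1.63, 1.44, 1.35 and 1.62 in Mitol KO and 1.67, 1.22, 1.31 and 1.09 in control libraries. The means were 1.51 ± 0.138 and 1.32 ± 0.250, and the groups overlapped because control replicate 1 had the highest ratio of all. No test was made on this ratio, since its members were chosen with results of these libraries known. The difference of means was 0.19, and 0.33 on normalized counts without length. It was 0.31 without control replicate 1, and lay between 0.11 and 0.24 when each of the other libraries was left out, the lowest being without control replicate 4.

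**Figure D4:**
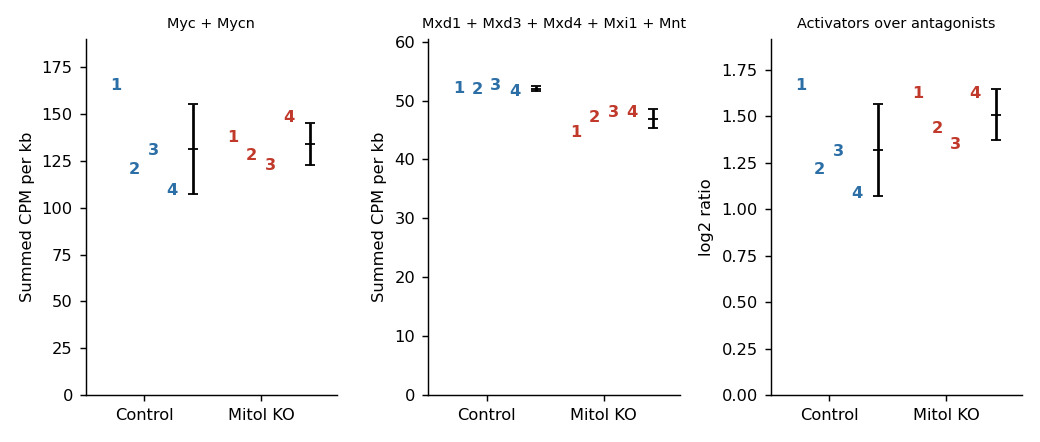
Summed level of activators (left), summed level of antagonists (middle), both in CPM per kb, and the log2 ratio of activators to antagonists (right), with digits for replicate numbers and black bars for group mean ± SD (n = 4). The antagonist sums of the 4 Mitol KO libraries lie between 44.5 and 48.0, below the control libraries at 51.5 to 52.6, while the other panels overlap.

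The remaining factors of the network were Mga, a large MAX-binding repressor, and Mlxip and Mlxipl, the partners of MLX. Mga had log2 fold change -0.044 (adjusted p = 0.808) and Mlxip 0.054 (adjusted p = 0.893), and neither passed the threshold. Mlxipl had between 0 and 8 reads per library and was not tested. Txnip, a glucose-sensitive inhibitor of glucose uptake and the best known target of MLX and MLXIP, had 2412, 3514, 4004 and 5546 normalized counts in Mitol KO and 4531, 7973, 6922 and 6406 in control libraries. In 3 of 4 Mitol KO libraries Txnip lay below every control library. Its log2 fold change of -0.76 (SE 0.22, adjusted p = 0.0545) narrowly missed the threshold, and passed it with DESeq2 (adjusted p = 0.00918). Arrdc4, a related arrestin-domain gene and target, had a log2 fold change of -0.20 (SE 0.27, adjusted p = 0.677).

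Genes whose products act on MYC or with the antagonists were read from the same fit. Of 16 genes of MYC protein turnover, 4 rose and 0 fell past the threshold (25%, against 8.43% of all genes). This list was also chosen with earlier results of these data known, and its share is given as a description. Fbxw7, which encodes the ubiquitin ligase subunit that targets MYC for degradation, had 784, 697, 639 and 639 normalized counts in Mitol KO and 537, 558, 541 and 512 in control libraries. All Mitol KO libraries lay above all control libraries, with a log2 fold change of 0.34 (SE 0.098, adjusted p = 0.0496). Aurka, a mitotic kinase that also binds and stabilizes N-MYC, rose from 102 ± 48.7 in control to 277 ± 45.0 in Mitol KO HSCs (log2 fold change 1.41, SE 0.30, adjusted p = 0.0195). Like the proliferation marker sum, Aurka was lowest in replicate 4 among Mitol KO libraries and highest in replicates 3 and 4 among control libraries. The part of the cell cycle in its difference was not tested. The others were Usp7, a deubiquitinase (0.30, adjusted p = 0.0390), and Set, an inhibitor of the phosphatase PP2A (0.50, adjusted p = 0.0440). These members thus include genes known to lower and genes known to raise MYC protein. The number called was 1, 0, 0 and 6 without Mitol KO replicates 1 to 4, 2, 1, 1 and 1 without control replicates 1 to 4, and 2 with the replicate block.

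Among 13 MYC cofactors, 1 rose, Hcfc1, with a log2 fold change of 0.39 (SE 0.11, adjusted p = 0.0446), and the median was 0.16. Hcfc1 encodes a chromatin scaffold that binds MYC. Of 13 tested genes of the SIN3 corepressor, 1 fell, Arid4a, with a log2 fold change of -0.53 (SE 0.14, adjusted p = 0.0358), while the median was 0.19. Arid4a encodes an RB-binding subunit of that complex. Sin3a and Sin3b, the scaffolds bound by MXD proteins, had log2 fold changes of 0.23 (adjusted p = 0.117) and -0.067 (adjusted p = 0.655). Both shares, 7.69%, were near the 8.43% of all genes. The cofactor and SIN3 lists held 1 call each without control replicate 1, 2 and 3 calls without Mitol KO replicate 4, and 0 without each of the other 6 libraries.

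A list of 63 MYC targets was written from general knowledge, but with earlier results of these data known. In it 13 rose and 0 fell past the threshold (20.6%, against 8.43% of all genes called in either direction). Of the 63 targets, 58 had a log2 fold change above 0, against 7841 of the 16444 tested genes. These shares are therefore given as a description. The median was 0.33. Ldha, the lactate dehydrogenase subunit that is a classic MYC target, had 6930, 6991, 6168 and 5592 normalized counts in Mitol KO and 3590, 3379, 3379 and 2858 in control libraries. The groups lay far apart, with a log2 fold change of 0.94 (SE 0.097, adjusted p = 0.00134). Others with low p-values were the hexokinase Hk2 (0.99, adjusted p = 0.0183), the mitotic kinase Plk1 (1.74, adjusted p = 0.0205), the mitochondrial chaperonin Hspd1 (0.70, adjusted p = 0.0288), the G1 kinase Cdk4 (0.52, adjusted p = 0.0313) and the replication helicase subunit Mcm4 (0.83, adjusted p = 0.0339). Plk1, Plk4, Mcm4 and Mcm5 in this list are also cell cycle genes, and the proliferation markers given above moved with the same groups. Their part in the list's change was not tested. The number called was 3, 2, 4 and 26 without Mitol KO replicates 1 to 4 and 17, 3, 4 and 3 without control replicates 1 to 4.

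**Figure D5:**
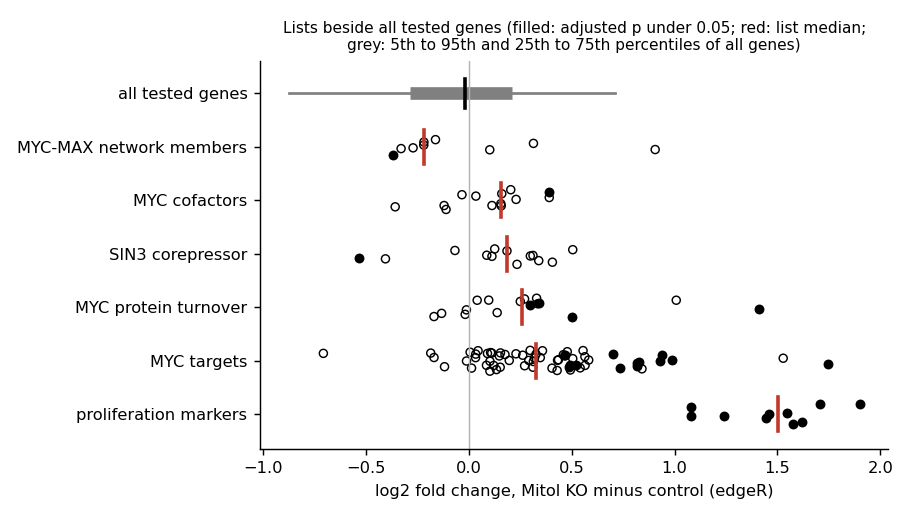
Log2 fold changes, Mitol KO minus control, of the genes in 6 lists beside all 16444 tested genes, with filled points past the adjusted threshold and a red bar at each list's median. The medians are -0.22 for the network members, 0.33 for MYC targets and 1.503 for proliferation markers, against -0.0195 for all genes.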

How the data were processed

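The authors aligned single-end reads to mm39 with STAR, merged the alignments (samtools) and counted reads over genes (subread), per the study's methods and the submitters' processing notes. The annotation and strand setting are not given in the sources used here. They deposited unnormalized counts for 23094 rows and 8 libraries. Of these rows, 1029 carry no gene symbol (0.335% to 0.467% of a library's counts) and were left out.

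Differences were tested by quasi-likelihood in edgeR (version 4.0.16), after TMM scaling and filterByExpr, with condition as the sole term and Benjamini-Hochberg adjustment over 16444 genes, at an adjusted p-value under 0.05. Standard errors were derived from the fold change and its F statistic. Normalized counts are counts divided by size factors of DESeq2 (version 1.42.0). CPM per kb are TMM-scaled CPM over the merged exon length of GENCODE vM39 on GRCm39. The fits were tested on simulated counts.

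The members, lists and tests were chosen with earlier results of these data known. Named genes were all members, Marchf5, Pvt1, all genes of lists of 3 or fewer, up to 6 called MYC targets and 4 called genes of any other list with the lowest p-values, and for Myc and each called member the 3 genes most like it. Genes named for another reason (Prelid1, Psmc3ip, Bmyc, Sin3a, Sin3b and further list members) fell outside that rule. Alternatives were DESeq2 size factors, no filter, DESeq2, limma-voom (version 3.58.1), the replicate number as a block, and leaving out 1 library at a time. The sources used here describe no molecular identifiers, so reads may repeat molecules, and 4 libraries of 100 cells per group limit precision. Some marker genes are not reported here.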

Additional observations from a re-analysis of the deposited data

Results flagged for a closer look

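In 64 groups of 4 libraries checked for a value far from the other 3 by Dixon's test, 3 were marked, where chance marks about 1 in 20. Max had 423 normalized counts in control replicate 1 and 555 to 582 in the other control libraries. Hcfc1 had 5040 normalized counts in control replicate 4 and 5897 to 6015 in the other control libraries. Bub1, a mitotic checkpoint kinase and proliferation marker, had 212 normalized counts in control replicate 3 and 69.9 to 84.4 in the other control libraries.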

How the results depend on the processing

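The 9 members kept the sign of their log2 fold change in all 13 alternative fits. Mxd4 was not past the threshold with DESeq2 size factors in edgeR (-0.36) or without the filter (-0.35), which left 0 members called in each, and Mxd3 was past it with DESeq2 (0.92), which called 2 members. DESeq2 also called 2317 genes in all, 22 MYC targets and 4 SIN3 genes. The turnover list had 2 calls with limma-voom and 2 with the replicate block. Of Txnip and Arrdc4, 1 was called with DESeq2, 1 with limma-voom and 1 with the replicate block. The cause of these changes was not tested.

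With each library left out, log2 fold changes ran from 0.21 to 0.43 for Mycn, -0.41 to -0.28 for Max, 0.70 to 1.13 for Mxd3 and -0.44 to -0.32 for Mxd4. Counts of called genes ran from 359 to 2501 over all genes, 0 to 3 for members, 2 to 26 for MYC targets, 0 to 6 for turnover, 0 to 2 for cofactors, 0 to 3 for SIN3, 0 to 1 for Txnip and Arrdc4, and 2 to 10 for proliferation markers.

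No clear pairing of the libraries by replicate number was seen. Deviations of same-numbered libraries correlated between -0.0695 and 0.08, and 2 of 4 Mitol KO libraries correlated best with their own number. With 4 libraries per group, this check cannot exclude a pairing. With the replicate block 1652 genes were called, and Mxd4 stayed past the threshold.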

Other observations

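Pvt1, the noncoding RNA gene beside Myc, had 238, 220, 162 and 94.2 normalized counts in Mitol KO and 189, 105, 116 and 162 in control libraries. The groups overlapped, with a log2 fold change of 0.31 (SE 0.28, adjusted p = 0.517). Bmyc, a short relative of Myc without a DNA-binding domain that was looked up after other values were seen, had 41.2 ± 16.2 and 40.1 ± 9.68 normalized counts (adjusted p = 0.974).

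Control replicate 1, the library with the fewest reads, held the highest Myc and Mnt and the lowest Max and Mxi1 of the control libraries. The genes whose deviations from the group means were most like those of Myc over the 8 libraries were Rps3 (Pearson's r 0.985), Proser1 (0.975) and Plekhm3 (0.954), out of 6543 genes with a mean log2 CPM of at least 5. For Mxd4 they were Laptm4b (0.990), Baz2b (0.990) and Ikbke (0.980). These are the highest values of a search over many genes whose points share library and depth, and are given as a description.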
